A study of Homo sapiens with 8 samples.

Results

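The polo-like kinases PLK1, PLK2, PLK3 and PLK4 are 4 of the 58233 genes in the count table, and their rows were found by the Ensembl identifiers that GENCODE v44 gives to the 4 symbols. They were chosen by their response to ionizing radiation (IR), as paralogs that may move in opposite directions, so their IR responses are described here without a test. RNA was sequenced from MCF10A-Hras cells, in which mammary epithelial MCF10A cells express oncogenic H-Ras, and all groups share this background. The 4 groups were WT (control) cells left untreated, control cells given 5 Gy of X-rays 12 h before RNA extraction, RBM6-KO cells left untreated and RBM6-KO cells given the same dose, each group holding 2 biological replicates (A and B). RBM6 is an RNA-binding splicing factor, and the RBM6-KO cells are 1 clone, made with a Cas9-D10A nickase and paired guide RNAs to exon 3, so the genotype and the clone cannot be told apart. The sources used here do not say whether the replicates were grown as separate cultures, and the p-values then measure only the spread between these libraries, which may be technical.

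Polo-like kinases share an N-terminal kinase domain and a C-terminal polo-box region that docks the kinase on its substrates. PLK1 drives mitotic entry, spindle assembly and cytokinesis, and its transcript is made mainly in G2 and M phase. PLK2 and PLK3 were first known as serum-inducible genes and are also induced by cellular stress, with PLK2 a known target of p53, while PLK4 starts centriole duplication. In cells that stop dividing after DNA damage, p53 raises p21 (CDKN1A), and genes of G2 and M phase are repressed through promoter elements called CDE/CHR.

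The promoters are shown because these elements set apart the groups of genes to which the kinases are usually assigned. Windows of 300 bases (250 before to 50 after the start) were taken from RefSeq (GRCh38.p14), with 1 window for each of PLK1, PLK2 and PLK3 and 3 for PLK4, of which the most upstream is used. Positions -150 to -24 from the start are printed 5′ to 3′ on the gene's strand, with motif matches in capitals. They lie at chr16:23678739-23678865 (+ strand) for PLK1, chr5:58460110-58460236 (- strand) for PLK2, chr1:44800227-44800353 (+ strand) for PLK3 and chr4:127880743-127880869 (+ strand) for PLK4.
PLK1: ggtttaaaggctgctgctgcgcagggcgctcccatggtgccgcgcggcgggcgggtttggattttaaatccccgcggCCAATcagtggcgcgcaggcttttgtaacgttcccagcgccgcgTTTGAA
PLK2: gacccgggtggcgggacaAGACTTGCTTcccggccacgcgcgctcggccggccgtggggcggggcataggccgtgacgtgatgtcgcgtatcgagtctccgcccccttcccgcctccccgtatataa
PLK3: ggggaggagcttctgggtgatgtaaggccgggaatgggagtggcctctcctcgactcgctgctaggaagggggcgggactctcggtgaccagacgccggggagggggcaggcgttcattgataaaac
PLK4: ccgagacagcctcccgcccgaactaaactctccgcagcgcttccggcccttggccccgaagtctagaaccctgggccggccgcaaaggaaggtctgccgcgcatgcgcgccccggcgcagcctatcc

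The search covered 4 motifs on both strands, and no match overlapped another. PLK1 held CCAAT with its first base at -73 and the CHR letters TTTGAA at -29. PLK2 held 1 match to the p53 half-site at -132. PLK3 held no match in its window, and the first PLK4 window held TTTGAA on the opposite strand at 38, which is after the start and not printed. Another PLK4 window held CCAAT on the opposite strand at -86. The CArG box, the site of serum response factor, was in none of these windows. Of 35116 RefSeq promoter windows of the same length, 15.2% held TTTGAA, 34.6% CCAAT, 6.63% the p53 half-site and 1.29% the CArG box. A match describes the letters and does not show binding.

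The libraries held 15355281 to 29832009 counts on genes, and control IR replicate B was the deepest. Values below are depth-normalized counts (CPM, after TMM scaling), and the limits for a call were a change of 2-fold or more and an adjusted p below 0.05. All 13 mammary basal epithelial markers were over 1 CPM in every library. Their summed level was 7253 to 8199 CPM in the control and 6079 to 7139 CPM in the RBM6-KO libraries. EPCAM was called lower in RBM6-KO cells at both treatments (log2 fold changes -1.79 and -1.82). KRT14 went the other way (0.78 in untreated cells and 0.75 after IR) and was not called. Between genotypes 9 of the 13 were below 0 and 4 above in untreated cells, and 11 below and 2 above after IR. Summed fibroblast markers were 81.1 to 109 CPM in the control libraries and 119 to 211 CPM in the RBM6-KO libraries, with 2 of the 7 genes (COL1A1 and DCN) over 1 CPM throughout. These 2 went opposite ways between genotypes, with log2 fold changes of 0.91 in untreated cells and 1.11 after IR for DCN, the latter called, and -0.74 and -1.17 for COL1A1, not called. Summed leukocyte markers were 12 to 19 CPM in control and 3.66 to 5.63 CPM in RBM6-KO libraries, with CD14 the only one of 5 over 1 CPM throughout and CD3E at 0. CD14 was called lower in untreated RBM6-KO cells (log2 fold change -1.81, edgeR quasi-likelihood adjusted p = 0.000373) and was not called after IR (-1.19). Summed endothelial markers were 1.26 to 2.47 CPM in control and 3.38 to 6.33 CPM in RBM6-KO libraries, with 1 of 3 genes (PECAM1) over 1 CPM throughout. These sums separated the genotypes, as PLK2 did, and their part in the PLK differences was not tested. RBM6 mRNA differed by a log2 fold change of -0.14 between untreated genotypes (adjusted p = 0.712) and -0.40 after IR (adjusted p = 0.535, edgeR quasi-likelihood with Benjamini-Hochberg correction), so the counts do not check the deletion.

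PLK1 (ENSG00000166851, chromosome 16, 23677656 to 23690367, + strand, GRCh38) was at 141 and 129 CPM in untreated control cells, 62.4 and 54 CPM in control cells after IR, 121 and 134 CPM in untreated RBM6-KO cells and 51.3 and 44.5 CPM in RBM6-KO cells after IR. All 4 irradiated libraries were therefore below all 4 untreated ones, and the untreated genotypes overlapped. With 2 libraries in a group, groups can fail to overlap by chance. The share of all genes without overlap was not counted, so here and below such separations are only described. The group means were 135 ± 8.79 and 58.2 ± 5.96 CPM (SD, n = 2) in control cells and 128 ± 9.31 and 47.9 ± 4.78 CPM in RBM6-KO cells. The log2 fold change with IR was -1.23 (standard error 0.17, 2.34-fold lower) in control and -1.43 (standard error 0.16, 2.69-fold lower) in RBM6-KO cells. In bulk RNA, fewer cells in G2 and M phase and less PLK1 mRNA per cell cannot be told apart.

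PLK2 (ENSG00000145632, chromosome 5, 58453982 to 58460139, - strand) went the other way. Its level was 14.8 and 16.4 CPM in untreated control cells, 64.1 and 65.4 CPM in control cells after IR, 6.87 and 7.96 CPM in untreated RBM6-KO cells and 31.3 and 41.5 CPM in RBM6-KO cells after IR. None of the 4 groups overlapped another, and their order was RBM6-KO untreated, control untreated, RBM6-KO IR and control IR. The lowest libraries held 117 and 122 counts of PLK2 and the highest 2032. The group means were 15.6 ± 1.15 and 64.8 ± 0.93 CPM (SD, n = 2) in control cells and 7.41 ± 0.772 and 36.4 ± 7.26 CPM in RBM6-KO cells. The log2 fold change with IR was 2.04 (standard error 0.19) in control cells, 4.12-fold, and 2.28 (standard error 0.22) in RBM6-KO cells, 4.86-fold.

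PLK3 (ENSG00000173846, chromosome 1, 44800377 to 44805990, + strand) was higher after IR by a smaller step. It was at 38.7 and 39.3 CPM in untreated control cells, 58.8 and 53.2 CPM in control cells after IR, 38.7 and 38.6 CPM in untreated RBM6-KO cells and 58.6 and 58.1 CPM in RBM6-KO cells after IR. The irradiated libraries were all above the untreated ones, and at each treatment the genotypes overlapped. The log2 fold change with IR was 0.51 (standard error 0.18) in control and 0.58 (standard error 0.15) in RBM6-KO cells, under 2-fold in both.

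PLK4 (ENSG00000142731, chromosome 4, 127880893 to 127899224, + strand) was the least regular. It was at 15.7 and 11 CPM in untreated control cells, 11.8 and 15.3 CPM in control cells after IR, 18.2 and 17.5 CPM in untreated RBM6-KO cells and 13.4 and 13.3 CPM in RBM6-KO cells after IR. Control libraries overlapped between treatments, whereas both untreated RBM6-KO libraries lay above the other 6. The log2 fold change with IR was 0.02 (standard error 0.25) in control cells, and leaving out single libraries moved it from -0.21 (without control untreated replicate B) to 0.28 (without control untreated replicate A). In RBM6-KO cells it was -0.44 (standard error 0.18).

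**Figure D1:**
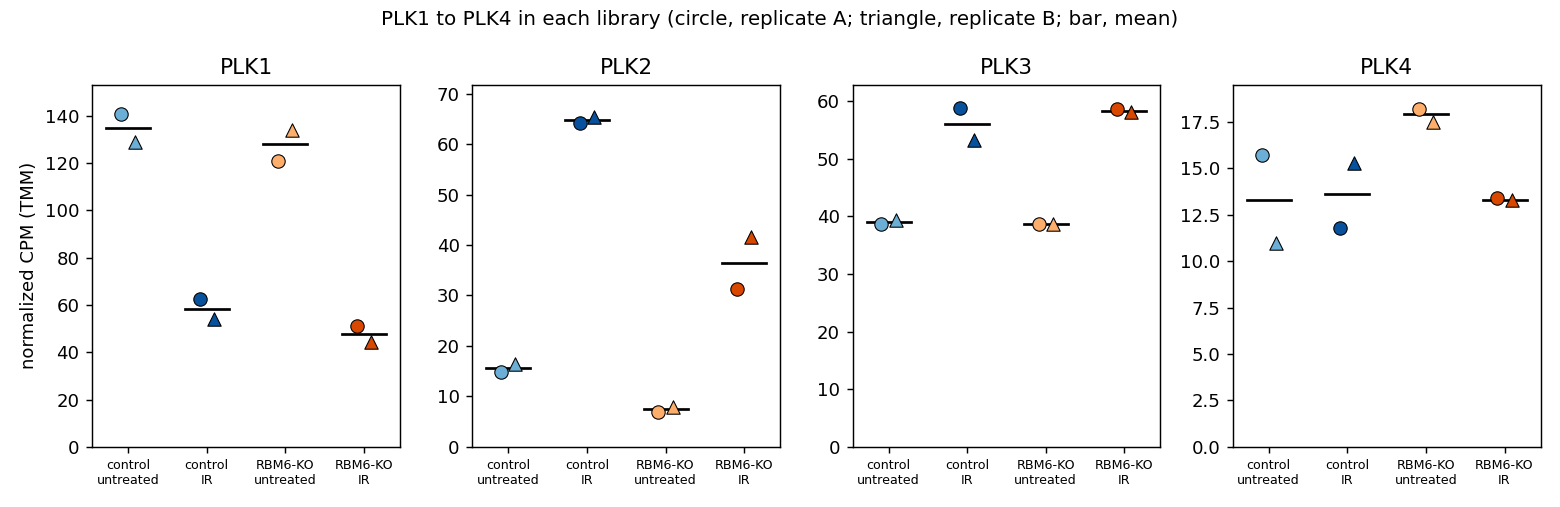
Normalized CPM (vertical axes, from 0, each gene on its own scale) of PLK1, PLK2, PLK3 and PLK4 in the 4 groups, with circles for replicate A, triangles for replicate B and bars for the mean of 2 libraries. PLK1 was at 129 and 141 CPM in untreated and 54 and 62.4 CPM in irradiated control cells, while PLK2 was at 14.8 and 16.4 CPM and then 64.1 and 65.4 CPM. Of the 4 kinases, PLK2 alone separated the genotypes at both treatments, and the share of all genes doing so was not counted.

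Over all genes, 1.68% were called higher and 1.91% lower after IR in control cells, and 1.13% and 1.97% in RBM6-KO cells. By fold alone, 1 of the 4 kinases (PLK2) was over 2-fold higher and 1 (PLK1) over 2-fold lower in each genotype, and since this contrast chose the genes nothing is read from these counts. PLK2 stood at percentile 99.5 of all log2 fold changes in control and 99.8 in RBM6-KO cells, PLK1 at 3.26 and 3.03, and PLK3 at 85.3 and 87.7. These percentiles come from the same contrast and are only described. With DESeq2 the split of all calls in control cells was 253 higher and 172 lower in place of 259 and 294, and in RBM6-KO cells 208 and 237 in place of 177 and 308. The PLK1, PLK2 and PLK3 log2 fold changes with IR kept their signs in all 13 settings in each genotype.

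The genotypes were compared next, before and after damage. PLK2 was lower in untreated RBM6-KO cells, 7.41 against 15.6 CPM, or -1.09 on the log2 scale with a standard error of 0.22 (2.13-fold, adjusted p = 0.00446, edgeR quasi-likelihood with Benjamini-Hochberg correction). It was the only one of the 4 called, with 0 called higher, where 1.97% of the 15556 genes tested were called lower and 1.16% higher. The fold lay close to the 2-fold limit. Without RBM6-KO untreated replicate A the log2 fold change was -1.00 and just missed that limit (adjusted p = 0.0127), and without the other RBM6-KO library it was -1.18.

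After IR, PLK2 was at 36.4 against 64.8 CPM, or -0.82 on the log2 scale with a standard error of 0.19 (1.77-fold, edgeR adjusted p = 0.117), and was not called. The adjusted p depended on the fit and ran over the alternatives from 0.000296 with a block for the replicate letter to 0.671 without RBM6-KO IR replicate A. It was 0.0271 with DESeq2, 0.0328 with all 8 libraries in 1 fit and 0.0104 without a filter. The change was under 2-fold in all of these except without RBM6-KO IR replicate B, where the log2 fold change was -1.05 (adjusted p = 0.151). None of the 4 kinases was called after IR, where 0.353% of 15587 genes passed the limits upward and 0.815% downward.

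The other kinases gave smaller genotype differences, none of them called. PLK1 differed by a log2 fold change of -0.10 (95% interval -0.39 to 0.20, edgeR adjusted p = 0.796) in untreated cells. After IR its value was -0.27 (95% interval -0.68 to 0.14, edgeR adjusted p = 0.685), with both RBM6-KO libraries below both control libraries. PLK3 differed by -0.02 (95% interval -0.37 to 0.32) and 0.07 (95% interval -0.30 to 0.44), so that a 2-fold difference lay outside both intervals. With trends in GC content and length removed, the untreated values became 0.08 for PLK1 and 0.17 for PLK3, with the sign turned.

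PLK4 was at 17.9 ± 0.535 CPM in untreated RBM6-KO and 13.3 ± 3.29 CPM in untreated control cells (SD, n = 2), or 0.41 on the log2 scale (standard error 0.22, edgeR adjusted p = 0.33). The 2 groups did not overlap, but the value ran from 0.19 to 0.68 when 1 library was left out, the ends being without control untreated replicate B and A. After IR the PLK4 difference was -0.02 (95% interval -0.54 to 0.49).

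Whether the IR responses differed between the genotypes was tested over all 8 libraries. The difference of the 2 log2 fold changes was -0.19 for PLK1 (standard error 0.21), 0.25 for PLK2 (standard error 0.26), 0.07 for PLK3 (standard error 0.20) and -0.46 for PLK4 (standard error 0.31), each with an edgeR adjusted p of 1. The 95% intervals were -0.65 to 0.26, -0.33 to 0.82, -0.36 to 0.50 and -1.13 to 0.22. The intervals for PLK1, PLK2 and PLK3 left out a 2-fold difference in response, and that for PLK4 did not. Over the 16549 genes tested edgeR called 0 (0%) and DESeq2 0, with 306 genes at an unadjusted p under 0.05 by edgeR.

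**Figure D2:**
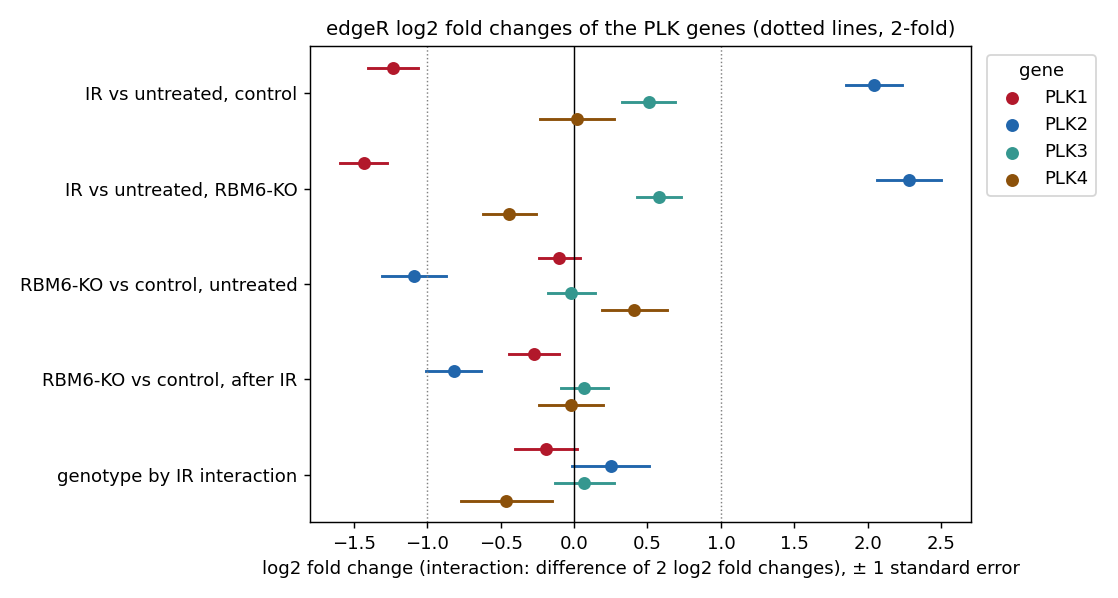
Log2 fold changes (horizontal axis) of PLK1 to PLK4 from edgeR in the 4 comparisons and the interaction, with points for estimates, lines for 1 standard error on each side and dotted lines at 2-fold. The IR responses of PLK1 (-1.23 and -1.43) and PLK2 (2.04 and 2.28) lie on opposite sides of 0, and PLK2 has the lowest genotype differences of the 4 kinases (-1.09 untreated and -0.82 after IR).

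To compare levels between genes, CPM were divided by merged exon length, which is 4760 bases for PLK1, 4647 for PLK2, 3327 for PLK3 and 4479 for PLK4. In untreated control cells PLK1 stood highest at 28.4 CPM per kb, followed by PLK3 at 11.7, PLK2 at 3.36 and PLK4 at 2.97, and PLK2 and PLK4 differed by less than the SD of PLK4 (0.735 CPM per kb). After IR the order in control cells was PLK3 at 16.8, PLK2 at 13.9, PLK1 at 12.2 and PLK4 at 3.03 CPM per kb. In untreated RBM6-KO cells PLK1 was at 26.8, PLK3 at 11.6, PLK4 at 3.99 and PLK2 at 1.6 CPM per kb, and after IR PLK3 was at 17.5, PLK1 at 10.1, PLK2 at 7.83 and PLK4 at 2.98 CPM per kb. PLK2 was thus the lowest kinase in untreated RBM6-KO cells and above PLK4 after IR.

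The order after IR depended on the length used. By the longest coding transcript (2160, 2792, 2340 and 3838 bases for PLK1, PLK2, PLK3 and PLK4), irradiated control cells held PLK1 at 26.9, PLK3 at 23.9 and PLK2 at 23.2 CPM per kb, with PLK1 at the top in place of PLK3. The other groups kept their order, with 59 CPM per kb of PLK1 in untreated and 22.2 in irradiated RBM6-KO cells, where PLK3 was at 24.9. The transcripts in use were not measured by these gene counts.

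**Figure D3:**
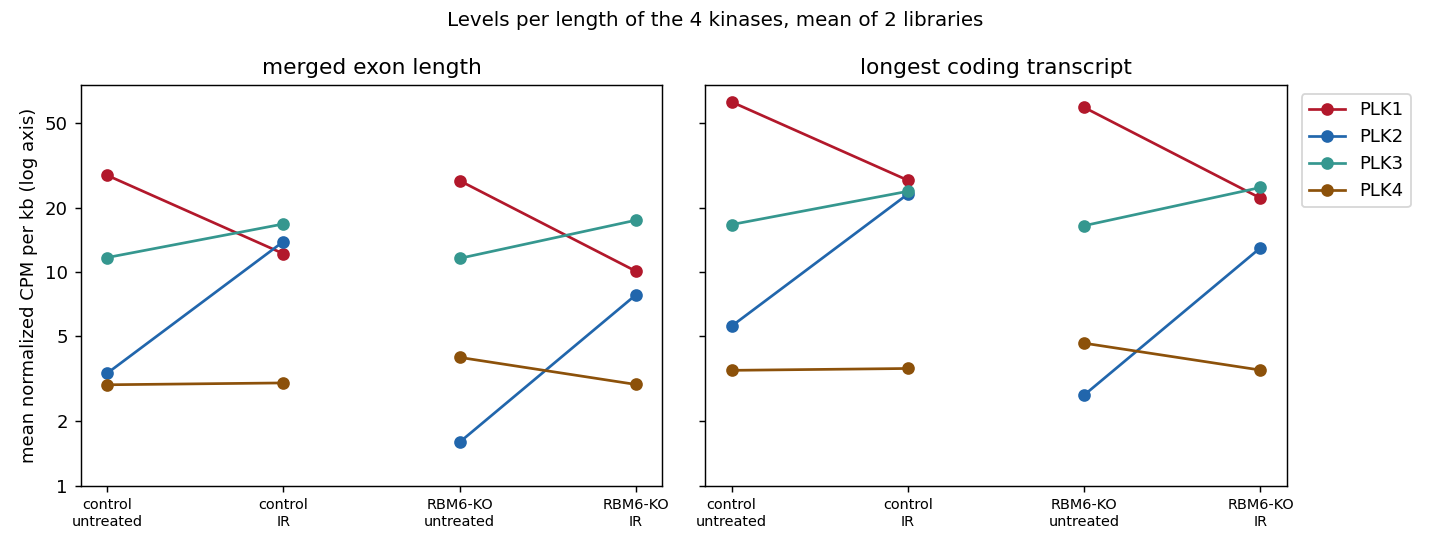
Mean CPM per kb of 2 libraries (vertical log axis) in the 4 groups, by merged exon length (left) and by the longest coding transcript (right), with lines joining untreated and irradiated cells of 1 genotype. PLK1 is highest in untreated control cells (28.4 CPM per kb by exon length) and near PLK3 and PLK2 after IR, and the PLK2 and PLK4 lines cross in RBM6-KO cells.

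Ratios within a library are free of scaling between libraries. The log2 ratio of PLK2 to PLK1 (per exon length) was -3.22 and -2.94 in untreated control, 0.07 and 0.31 in irradiated control, -4.10 and -4.04 in untreated RBM6-KO and -0.68 and -0.07 in irradiated RBM6-KO libraries. PLK2 therefore passed PLK1 in both irradiated control libraries and in neither irradiated RBM6-KO library by this length, with the groups not overlapping. The log2 ratio of PLK3 to PLK1 was -1.35 and -1.20, then 0.43 and 0.50 in control cells, and -1.13 and -1.28, then 0.71 and 0.90 in RBM6-KO cells. By this length it was above 0 in all 4 irradiated libraries and below 0 in all 4 untreated ones. By the longest coding transcript the mean of PLK1 was above that of PLK3 in irradiated control cells (26.9 against 23.9 CPM per kb). The log2 ratio of PLK2 to PLK3, the 2 kinases higher after IR, was -1.87 and -1.74 in untreated control and -2.98 and -2.76 in untreated RBM6-KO libraries, and after IR it was -0.36 and -0.18 in control and -1.39 and -0.97 in RBM6-KO libraries. It was lower in RBM6-KO than in control libraries at both treatments.

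Of the summed per-length level of the 4 kinases, PLK1 made up 61.2% in untreated and 26.6% in irradiated control cells, and 60.9% and 26.2% in RBM6-KO cells. PLK2 made up 7.23% and 30.3% in control and 3.63% and 20.4% in RBM6-KO cells. PLK3 made up 25.2% and 36.6% in control and 26.4% and 45.6% in RBM6-KO cells, and the share of PLK4 stayed between 6.4% and 9.07%. By these shares the family turned from mostly PLK1 to mostly PLK3 and PLK2 in control cells after IR.

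**Figure D4:**
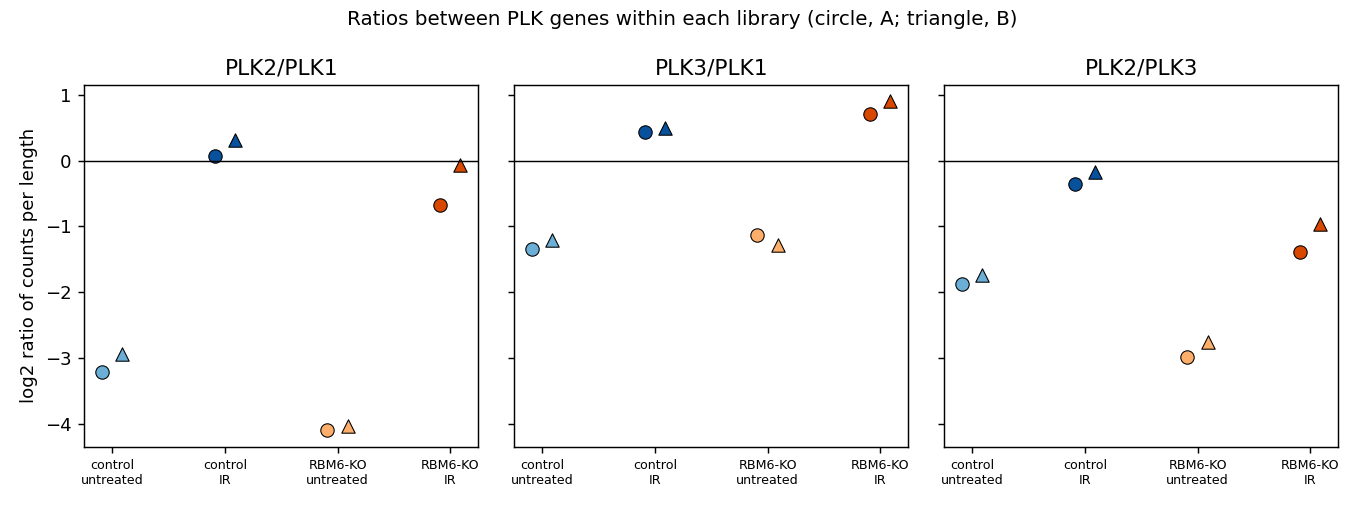
Log2 ratios of counts per exon length (vertical axis) between pairs of kinases in each library, with circles for replicate A and triangles for replicate B. PLK2/PLK1 was -3.22 and -2.94 in untreated and 0.07 and 0.31 in irradiated control libraries, and PLK2/PLK3 was lower in RBM6-KO than in control libraries at both treatments.

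The lists of genes around the kinases were counted next, beginning with the p53 pathway, to which PLK2 and PLK3 are usually linked. The lists were written with earlier results of these data known, so their counts are a description. Beside them, 1.68% of all genes were called higher and 1.91% lower after IR in control cells. In RBM6-KO cells these shares were 1.13% and 1.97%. After IR, 15 of 24 p53 pathway genes were called higher and 0 lower in control cells, with a median log2 fold change of 1.10 against 0.02 over all genes tested. In RBM6-KO cells 11 were called higher and 0 lower, with a median of 0.94 against -0.01. The smallest p-values belonged to GDF15, a stress-induced cytokine (log2 fold change 2.62 in control and 2.93 in RBM6-KO cells), BTG2, an antiproliferative gene (2.02 and 1.98), and CDKN1A, the cell cycle inhibitor p21 (1.80 and 2.02). The values were 2.04 and 2.28 for PLK2 and 0.51 and 0.58 for PLK3. This contrast chose the kinases, so they are not ranked against the list. Between genotypes 0 of the 24 genes were called at either treatment in the main fits. Their median log2 fold change was -0.15 in untreated cells and -0.14 after IR, against -1.09 and -0.82 for PLK2. Some of them were also lower in RBM6-KO cells at an adjusted p below 0.05 (edgeR quasi-likelihood), but by under 2-fold. They were BBC3 (-0.90), GDF15 (-0.69) and DDB2 (-0.57) in untreated cells and DDB2 (-0.91) after IR. Above 0 were 9 of the 24 genes in untreated cells and 6 after IR.

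The immediate early list holds genes induced within minutes to hours by serum and growth factors. In untreated RBM6-KO cells 1 of its 20 tested genes was called lower, the transcription factor gene FOS, from 36.9 ± 1.33 to 15.9 ± 1.06 CPM (SD, n = 2), or -1.23 on the log2 scale (edgeR adjusted p = 0.000338). The median of the list was -0.31 against 0.01 over all genes tested, with 13 genes below 0, 7 above 0 and 0 called higher. At an adjusted p below 0.05 (edgeR quasi-likelihood) but under 2-fold, CCN1 was higher (0.70) and EGR1 lower (-0.68). Over all genes tested, 1.97% were called lower and 1.16% higher. After IR 0 of 21 genes were called between genotypes, with a median of -0.08. With IR 1 gene was called lower in control cells, HBEGF, a growth factor of the EGF family (-1.05), and 1 higher in RBM6-KO cells, FOS (1.22), with medians of 0.04 and 0.22. These IR counts are small and rose to 2 or 3 genes without control IR replicate A or control untreated replicate A in control cells, and without either irradiated library or untreated replicate A in RBM6-KO cells. PLK2 had log2 fold changes with IR of 2.04 in control and 2.28 in RBM6-KO cells. The kinases were chosen by this contrast, so PLK2 is not ranked against the list.

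PLK1 is usually placed with the genes of G2 and M phase. Of 20 such genes, 4 were called lower and 0 higher after IR in control cells (CENPF, BIRC5, CENPE and ASPM), and 13 lower and 0 higher in RBM6-KO cells, with medians of -0.77 and -1.13. ASPM, a spindle pole gene, CENPF, a kinetochore gene, and MKI67, the proliferation marker Ki-67, had the smallest p-values in RBM6-KO cells, with log2 fold changes of -2.01, -2.22 and -1.50. PLK1 had log2 fold changes of -1.23 and -1.43, and for the same reason it is not ranked against the list. The interaction called 0 of the 20 genes, so no gene's response was shown to differ between genotypes. The median of these differences was -0.33 against -0.01 over all genes tested, with all 20 below 0. Between genotypes 0 of the 20 were called at either treatment in the main fits, with medians of 0.20 in untreated cells and -0.21 after IR. HMMR (0.79) and CENPF (0.76) were higher in untreated RBM6-KO cells at an adjusted p below 0.05 (edgeR quasi-likelihood), but by under 2-fold.

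Among 21 activators and mitotic partners of PLK1 few passed the limits. CDC20, the mitotic activator of the anaphase-promoting complex, was called lower after IR in both genotypes (log2 fold change -1.32 in control and -1.76 in RBM6-KO cells), and KIF20A, a kinesin of cytokinesis that PLK1 binds, in RBM6-KO cells (-1.16). Without RBM6-KO IR replicate A 1 gene of the list was called in RBM6-KO cells. The medians were -0.26 and -0.54, with 17 and 18 of the 21 genes below 0. Between genotypes 0 were called. CDC25B, a phosphatase that activates CDK1 and the most abundant gene of the list, had a log2 fold change of -0.68 in untreated RBM6-KO cells (edgeR adjusted p = 0.00442), which is under 2-fold.

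Of 22 centriole duplication genes, the setting in which PLK4 acts, 0 were called after IR in control cells and 1 lower in RBM6-KO cells, CEP295, a gene of centriole assembly (log2 fold change -1.00, from 11.5 ± 1.84 to 5.79 ± 0.711 CPM, SD, n = 2). This call lay on the 2-fold limit, with 0 genes called with DESeq2 size factors, with all 8 libraries in 1 fit, or without RBM6-KO IR replicate B or RBM6-KO untreated replicate B, and 3 without either replicate A. The medians were -0.12 and -0.24. In the genotype comparisons 0 were called in the main fits, with medians of 0.17 and 0.12, beside 0.41 and -0.02 for PLK4. PCM1 was higher in untreated RBM6-KO cells by under 2-fold (log2 fold change 0.68, edgeR adjusted p = 0.0286).

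A list of 13 genes held members of the DREAM and MuvB complexes, FOXM1, and also RB1 and E2F1. The complexes and FOXM1 control G2 and M phase promoters such as that of PLK1. After IR 0 of the 13 were called in control cells and 1 lower in RBM6-KO cells, with medians of 0.30 and -0.12. The called gene was E2F1, an S phase activator that is not part of these complexes (log2 fold change -1.36). In control cells 3 were called without control IR replicate A, the median was -0.14 without control IR replicate B, and 1 was called without control untreated replicate A, while 3 were called in RBM6-KO cells without either replicate A. Of 19 S phase genes 0 were called in control cells and 1 lower in RBM6-KO cells, the replication gene GINS2 (-1.04), with medians of -0.01 and -0.27. GINS2 was the list's only call, with 0 without RBM6-KO IR or untreated replicate B and 2 without RBM6-KO untreated replicate A. Between genotypes 0 genes of either list were called in the main fits. E2F1 was higher in untreated RBM6-KO cells by under 2-fold (log2 fold change 0.64, edgeR adjusted p = 0.0459). The interaction called 0 genes of either list.

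**Figure D5:**
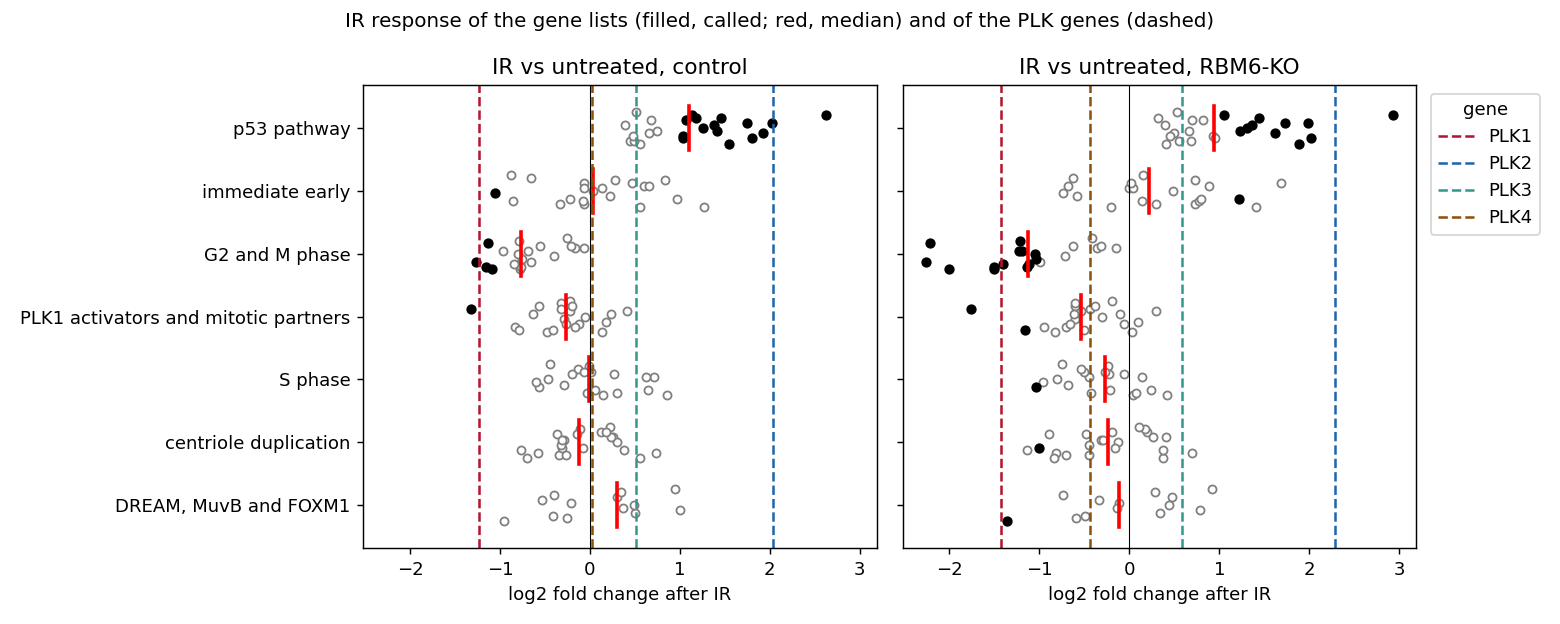
Log2 fold changes with IR (horizontal axis) of the genes of 7 lists in control (left) and RBM6-KO cells (right), with filled points for called genes, open points for the rest, red bars for list medians and dashed lines for the kinases. Dashed lines stand at 2.04 and 2.28 for PLK2, -1.23 and -1.43 for PLK1, and 0.51 and 0.58 for PLK3. The p53 pathway medians are 1.10 and 0.94. This contrast chose the kinases, so they are not ranked against the lists.

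Across the 8 libraries the log2 CPM of PLK1 and PLK3 had a Pearson r of -0.97, PLK1 and PLK2 -0.84, and PLK2 and PLK3 0.88. PLK4 had r = 0.35 with PLK1, -0.58 with PLK2 and -0.46 with PLK3. The libraries fall into untreated and irradiated ones, which these values mostly reflect, so they are given as a description. PLK1 had a median r of 0.92 with the 20 G2 and M phase genes and -0.91 with the 24 p53 pathway genes, beside -0.20 over all genes compared. PLK2 and PLK3 had medians of 0.91 and 0.92 with the p53 pathway genes and -0.81 and -0.91 with the G2 and M phase genes. PLK4 had 0.55 with G2 and M phase, 0.34 with 16 centriole duplication genes and -0.44 with the p53 pathway.

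The genes most like each kinase over the 8 libraries were sought among 9243 genes of at least 10 CPM by Pearson r. For PLK1 they were CDC20 (r = 0.996), KIFC1, UBE2S, CDKN3 and PIF1 (r = 0.994), of which CDC20, KIFC1 and UBE2S act in mitosis. For PLK2 they included RETSAT (r = 0.996), FADS1, LAPTM4B and TRIM22 (r = 0.991). The genotype differences of these 4 genes in untreated cells were smaller than that of PLK2, from -0.23 for FADS1 to -0.98 for TRIM22 on the log2 scale. For PLK3 they were AMZ2 (r = 0.992), CDKN1A (r = 0.991), CES2, FBXO8 and RPL23AP82 (r = 0.983), and for PLK4 SLC25A14 (r = 0.977), CKAP2L, DIAPH3, LPP and SHCBP1 (r = 0.935). By Spearman's rho 0 of the 5 were among the first 5 for PLK1, PLK2 and PLK3, and 2 for PLK4, so the names depend on the measure.

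PLK5 (ENSG00000185988, chromosome 19), the remaining human polo-like kinase gene, had 2 and 18 counts in untreated control, 0 and 10 in irradiated control, 13 and 12 in untreated RBM6-KO and 12 and 9 in irradiated RBM6-KO libraries. These are at most 0.966 CPM, and a count of 0 allows up to 3 counts, or 0.194 CPM in that library, counting error only. It shares 5582 bases with ADAMTSL5 on the opposite strand, which held 145 to 334 counts, and without a stated strand in the counting the reads of the 2 genes cannot be told apart. The overlaps of the other kinases held few counts. PLK1 overlaps ERN2 by 58 bases (0 to 1 counts) and an antisense lncRNA (0 to 3 counts), PLK3 overlaps DYNLT4 by 98 bases (6 to 29 counts), and PLK4 contains RNU6-583P (0 to 2 counts).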

How the data were processed

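The counts are whole-number reads per Ensembl gene that the authors deposited without normalization; the labels name hg38, STAR and DESeq2, and the kit was TruSeq mRNA. The counting tool, annotation and strand setting are not given in the sources used here. No column was left unused. Depth ran from 15355281 to 29832009 counts per library, and floors of 3 counts cover counting error only. Symbols came from GENCODE v44 (57392 of 58233 identifiers).

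Counts were analysed with edgeR 4.0.16 (R 4.3.3) by the quasi-likelihood test with TMM scaling and the filterByExpr filter, fitting the 4 libraries of a comparison by themselves and all 8 for the interaction, two-sided, with Benjamini-Hochberg adjustment over all genes tested. The standard error was the log2 fold change divided by the square root of F, and log2 CPM used a prior count of 2. The tests were tried on simulated data first. The members and the gene lists were chosen with earlier results of these data known, and the lists were written by hand. Named genes were the kinases, called list members (the 3 in each direction with the smallest p where more than 6 were called, otherwise up to 3 of the most abundant), the 5 genes most like each kinase and genes overlapping them. Not all genes so selected are named, and 1 of them is not reported here.

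Alternatives were DESeq2 1.42.0, other scalings, other filters, a replicate block, all 8 libraries in 1 fit, adjusted p alone, GC and length trends removed, and each library left out, the lone library being assumed to vary like the others. RefSeq promoters were searched for 4 motifs.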

Additional observations from a re-analysis of the deposited data

How the results depend on the processing

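Among values and counts that answer a comparison, 286 were labelled unchanged under an alternative. Of the rest, 5 lost the limits or fell by over 1.5 times, and 15 passed them or rose by over 1.5 times. A further 16 moved by more than the replicate spread, and 0 reversed a called direction. Values that were not called could turn sign within the replicate spread and still be labelled unchanged. The PLK4 IR response in control cells did so, from 0.02 to -0.21 without control untreated replicate B. With GC and length trends removed, the genotype difference was 0.08 for PLK1 and 0.17 for PLK3 in untreated cells and 0.22 for PLK3 after IR, and the IR response was 1.89 for PLK2 and 0.71 for PLK3 in control cells and 0.72 for PLK3 and -0.59 for PLK4 in RBM6-KO cells. The PLK3 response in RBM6-KO cells, whose replicates differed by little, was 0.61 with DESeq2 and with no filter, 0.59 with all 8 libraries, 0.56 with at least 10 counts in every library, 0.54 with the upper quartile and 0.58 to 0.60 with a library left out. With a library left out the PLK4 response in RBM6-KO cells was -0.46 to -0.39, and the PLK2 genotype difference in untreated cells was -1.18 to -1.00.

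The number of genes called in untreated RBM6-KO against control cells was 486, and 952 by adjusted p alone. After IR it was 182, and 280 with DESeq2, 340 with all 8 libraries, 71 with at least 10 counts in every library, 506 with no filter and 169 to 477 with a library left out. For IR in control cells it was 553, and 962 with no filter, 881 by adjusted p alone and 287 to 1406 with a library left out. For IR in RBM6-KO cells it was 485, and 1011 with no filter, 884 by adjusted p alone and 289 to 1563 with a library left out. The interaction gave 1 gene with no filter. The causes were not tested. The replicate letters were shared by all groups, but deviations of the A libraries correlated with r from -0.28 to 0.0788 over 16549 genes in 5 of the 6 pairs of groups and with r = 0.35 between the 2 irradiated groups. The letters were not taken to pair the samples, since nothing in the labels says what they share and a comparison has only 2 pairs. In the genotype comparison after IR, where r was 0.35, a replicate block gave 541 calls in place of 182, and PLK2 had an edgeR adjusted p of 0.000296 (log2 fold change -0.83). PLK1 to PLK4 had 117 or more counts in every library, whereas PLK5 had 0 to 18 and passed the filter in 3 of 5 fits, with log2 values of 0.44 between untreated genotypes, -0.56 with IR in RBM6-KO cells and 0.91 for the interaction (edgeR adjusted p = 0.814, 0.503 and 1).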
